A study of Mus musculus with 12 samples.

Results

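The genes described here are 46 members of the BMP, TGF-beta and activin signalling system, chosen by symbol as 15 ligands, 11 receptors, 8 antagonists, 8 SMAD genes and 4 ID genes. They were taken from the 30263 genes counted in 6 libraries of whole mouse colon, and 45 of the 46 passed the filter on low counts. The exception was Inha, the alpha subunit of inhibin, which averaged 1.35 ± 0.986 CPM (counts relative to the TMM-scaled library size; SD, n = 3) in WT and 1.01 ± 0.246 CPM in KO. The study compared C57BL/6 mice labelled WT with C57BL/6 mice labelled S1PR4 KO, S1PR4 being a sphingosine 1-phosphate receptor that mainly immune cells carry. All 6 colons came from day 84 of a colitis and tumor model in which both genotypes received azoxymethane (AOM, 10 mg/kg) on day 0, a carcinogen, and 0.5% dextran sulfate sodium (DSS) in the drinking water on days 1 to 6, 21 to 27 and 47 to 52, which injures the colon lining. There were 3 libraries per genotype, and the labels give neither age nor sex nor whether each library was a separate animal, so p-values measure only the spread between these samples. A further 6 libraries of CD8+ T cells, sorted from PyMT mammary tumors of WT and S1PR4 KO mice when 1 tumor had reached 1.5 cm, enter only where a member was listed in them.

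Ligands of this family are secreted dimers that bring together type I and type II receptor kinases. BMP receptors mainly phosphorylate SMAD1, SMAD5 and SMAD9, and TGF-beta and activin receptors mainly SMAD2 and SMAD3, after which these SMADs enter the nucleus with the shared partner SMAD4. ID genes are classical BMP targets, and secreted antagonists such as noggin and gremlin bind BMP ligands before they reach a receptor. In the colon, BMP signals are strongest towards the surface of the crypt, where they favour differentiation, while muscle and stromal cells below the crypt base secrete the antagonists that help to keep stem cells there.

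Total counts per library ran from 7304082 to 8652561. S1pr4 itself was counted in every library, with 61, 47 and 25 reads in WT replicates 1 to 3 and 154, 162 and 118 in KO replicates 1 to 3. The targeted gene thus went against the label. A count per gene does not tell whether the reads lie in the deleted part, and every direction below rests on the labels alone. The libraries also fell into sets that cut across genotype. Xist, which is expressed in female cells, stood at 515 to 591 CPM in WT replicate 1, KO replicate 2 and KO replicate 3 while the remaining 3 libraries had at most 6.75 CPM. In those 3 the Y-linked gene Ddx3y ranged from 63.3 to 81.1 CPM. The first set is called Xist-high and the second Y-linked, and each holds a single library of one genotype. Epithelial markers, such as Epcam and Muc2, were counted in all libraries, and the 8 of them summed to 1823 to 2126 CPM in WT and 2009 to 2070 CPM in KO.

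Genes were compared with each other per length, as CPM per kilobase of annotated exon averaged over the 6 libraries. Id1 led all members with 66.9 ± 4.01 (SD, n = 6), followed by the activin receptor Acvr1b with 45.8 ± 2.81, the common SMAD Smad4 with 45.4 ± 0.872, Id3 with 38.9 ± 4.45 and Bmp2 with 38.0 ± 10.4. Acvr1b and Smad4 did not differ beyond their spread, nor did Id3 and Bmp2. Below them stood the TGF-beta receptor Tgfbr2 with 29.8 ± 0.897 and the BMP antagonist Grem1 with 29.7 ± 8.49. Next came Fstl1, listed among the antagonists, with 28.3 ± 6.84 and the BMP receptor Bmpr1a with 27.7 ± 0.805 CPM per kilobase. Grem1 and Fstl1 did not differ from each other beyond their spread. The lowest were Bmpr1b with 0.338 ± 0.145, Inha with 0.798 ± 0.454 and the activin antagonist Fst with 1.71 ± 1.27. Divided by the longest annotated transcript instead, Id3 stood at 54.6, above Smad4 with 49.9 and Acvr1b with 45.8. The median member stood at 28.6 CPM per kilobase among ID genes, 20.8 among SMAD genes, 12.8 among receptors, 8.97 among ligands and 4.04 among antagonists.

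**Figure D1:**
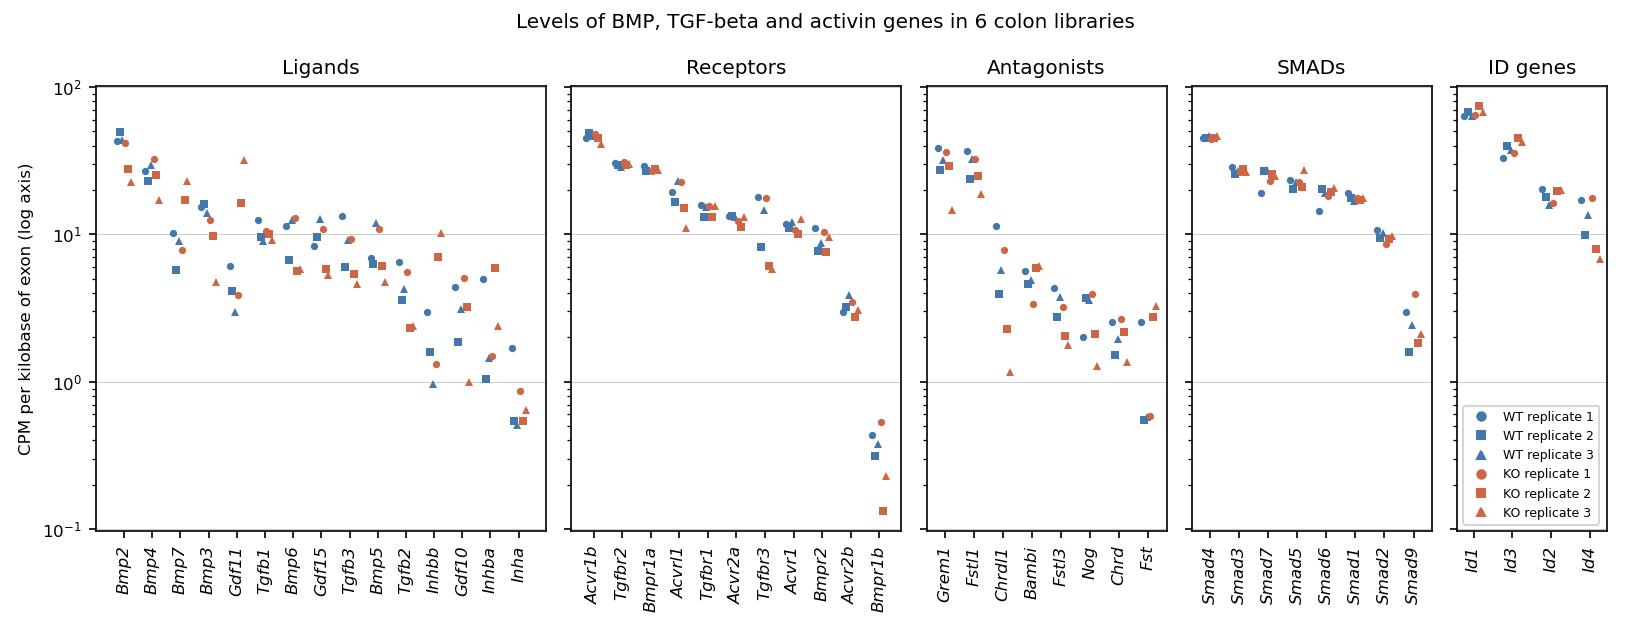
Level of each member in each colon library, as CPM per kilobase of exon on a log axis, by role and ordered by mean level (blue, WT; orange, KO; circle, square and triangle, replicates 1 to 3). The 6 points of Smad4, Tgfbr2 or Bmpr1a lie almost on each other, while those of Gdf11, Chrdl1 and Fst are spread widely.

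How much members varied between libraries differed by role in the median, and not for each member. The SD of log2 CPM over the 6 libraries had a median of 0.60 among the 14 tested ligands and 0.50 among the 8 antagonists. It was 0.13 among the 11 receptors, 0.13 among the 8 SMAD genes and 0.16 among the 4 ID genes, against 0.21 over all 17195 tested genes. The most even member was Smad4, with an SD of 0.028, and the least even was Inhbb, a subunit of activin B, with 1.37. Smad4 is among 4 members whose values may be compressed, as given below with the ID genes. The ligand Tgfb1 had 0.17, while the receptor Tgfbr3 had 0.76, Id4 0.58 and Smad9 0.48. Ligands and antagonists also had the lowest median levels per kilobase, and the part of level in the spread was not tested.

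No member passed edgeR's quasi-likelihood test of KO against WT with Benjamini-Hochberg adjustment over all tested genes. The lowest adjusted p was 0.829 among the members and 0.641 over all genes, of which 0% were called. DESeq2 called 0 members and 18 of all genes (0.105%), and limma-voom with quality weights called 0 members and 0% of all genes. At an unadjusted p under 0.05 edgeR had 2 members, Bmp2 on the lower side and Gdf11 on the higher, against 5.06% of all genes (2.44% lower and 2.62% higher). DESeq2 had 5 members against 5.34% and limma-voom had 13 against 24.4%. The mean was lower in KO for 29 members and higher for 16, which is 35.6% higher against 49.0% of all genes, and the median log2 difference was -0.063 against -0.0045. With total counts as the only scaling, 22 members were higher and 23 lower (48.9% higher against 55.2% of all genes), and the medians were -0.033 and 0.024. The WT and KO values did not overlap for 2 members, Bmp2 and Bmp3, both lower in KO, where 9.58% of all genes had no overlap, 5.04% lower and 4.55% higher. With DESeq2 size factors 2 members did not overlap, against 9.57% of all genes, and with total counts only 3 did not, against 9.11%.

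Leaving out a single library turned the sign of the difference or moved it by over 1.5 times for 43 of the 45 members, against 89.0% of all genes. Without KO replicate 1, 15 members had an unadjusted p under 0.05 in edgeR, against 20.9% of all genes. Without WT replicates 1, 2 or 3 the members numbered 1, 0 and 0, against 5.73%, 2.99% and 1.74%, and in the absence of KO replicates 2 or 3 they numbered 0 and 1, against 2.45% and 2.53%.

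**Figure D2:**
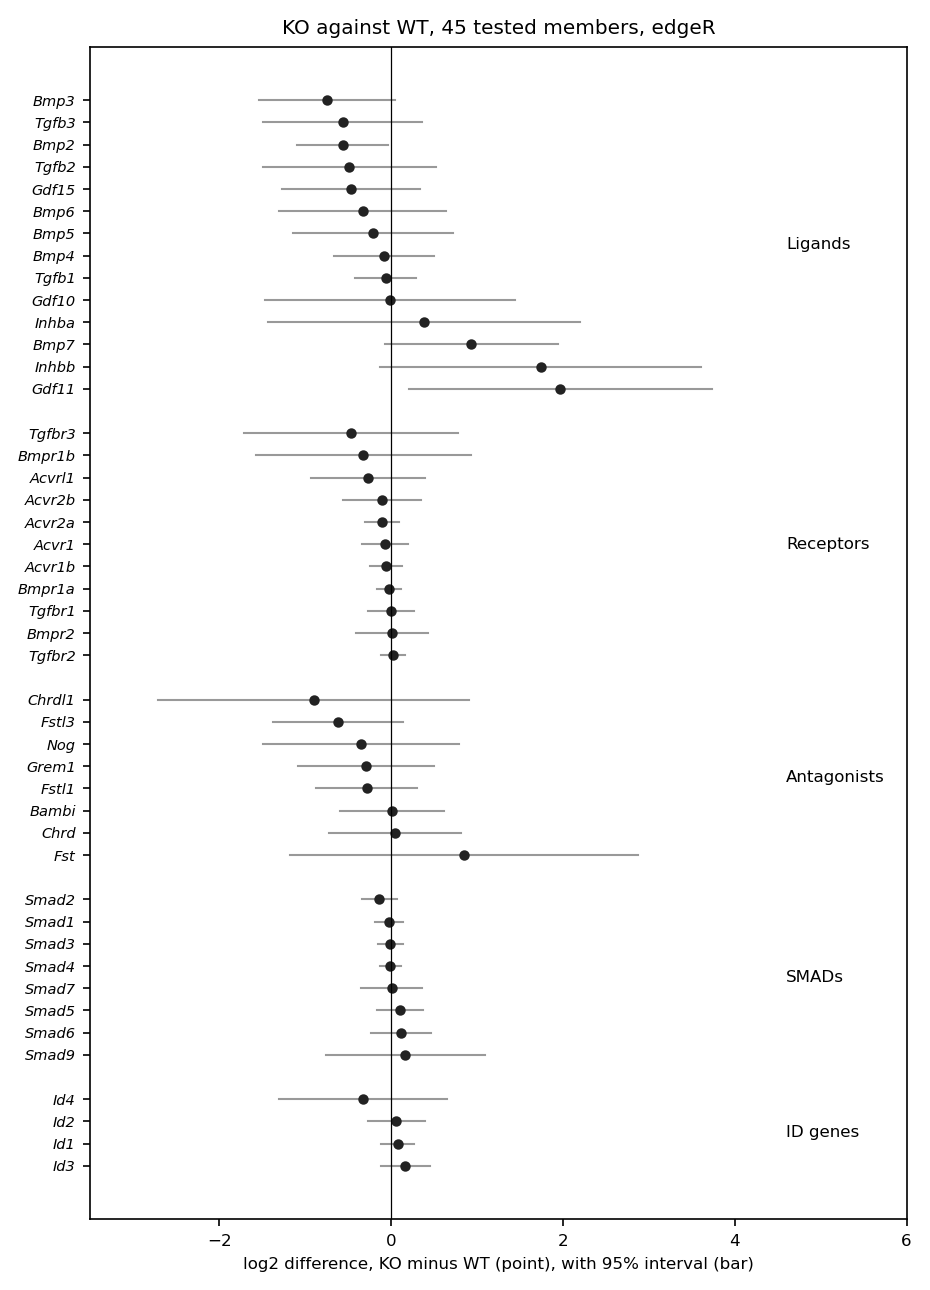
Log2 difference of KO from WT for the 45 tested members by role (point) with its 95% interval from edgeR (bar). The intervals of most SMAD genes and receptors are narrow around 0, that of Smad9 is wide, and only those of Bmp2 and Gdf11 leave out 0 before adjustment.

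Ligands held the differences with the smallest p. Bmp2, a BMP made by the upper crypt epithelium among other cells (chromosome 2, 133552159 to 133562885, GRCm38, plus strand), stood at 152, 176 and 155 CPM in WT and at 147, 98.7 and 80.9 CPM in KO replicates 1 to 3. All KO libraries lay below all WT libraries, but KO replicate 1 was only just below. The log2 difference was -0.56 ± 0.22 (SE; 95% interval -1.09 to -0.032; edgeR adjusted p = 0.829), and leaving out KO replicate 3 gave -0.38, KO replicate 1 -0.85. Bmp3, a BMP family member that can oppose the other BMPs (chromosome 5, 98854415 to 98884396, plus strand), stood at 114, 118 and 103 CPM in WT and at 92.7, 71.9 and 35.0 CPM in KO. Here too the groups were separate, with the lowest value in KO replicate 3. Its log2 difference was -0.75 ± 0.33 (SE; 95% interval -1.54 to 0.051; edgeR adjusted p = 0.829), or -0.43 without KO replicate 3.

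Gdf11, a ligand that signals through activin receptors (chromosome 10, 128882295 to 128891718, minus strand), was at 24.7, 16.9 and 12.1 CPM in WT and at 15.8, 65.9 and 129 CPM in KO. KO replicates 2 and 3 were far above every other library, and KO replicate 1 lay inside the WT range. The log2 difference was 1.97 ± 0.73 (SE; 95% interval 0.21 to 3.73; edgeR adjusted p = 0.829), and it was 1.20 without KO replicate 3. Gdf11 lies on the same chromosome as S1pr4, 47.38 Mb away. Inhbb and Bmp7, given in full after their values were seen, were highest in the same libraries, KO replicates 2 and 3. Inhbb stood at 12.7, 6.82 and 4.13 CPM in WT and at 5.62, 29.9 and 43.6 CPM in KO (log2 difference 1.74 ± 0.77 SE, edgeR adjusted p = 0.829). Bmp7, a ligand of the BMP branch, stood at 41.4, 23.1 and 36.0 CPM in WT and at 31.7, 68.8 and 92.0 CPM in KO (0.93 ± 0.41 SE, edgeR adjusted p = 0.829), and without KO replicate 3 its difference was 0.59. In all 3 genes the lowest Xist-high library was above the highest Y-linked library. With Xist status as a covariate, the log2 differences were 1.09 ± 0.56 for Gdf11, 0.84 ± 0.47 for Inhbb and 0.54 ± 0.30 for Bmp7 (SE), and none of them passed the test.

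Markers of stem cells and WNT targets were also highest in KO replicates 2 and 3. All 8 of them, Lgr5 and Axin2 among them, had a higher mean in KO without passing the test, and their summed level was 597, 441 and 355 CPM in WT and 399, 1049 and 1491 CPM in KO replicates 1 to 3. The 6 neutrophil and inflammation markers summed to 62.1, 15.6 and 6.50 CPM in WT and to 12.6, 129 and 120 CPM in KO. The 6 dividing cell markers, among them Mki67 and Top2a, summed to 563, 597 and 608 CPM in WT and to 681, 714 and 778 CPM in KO, with all 6 higher in mean in KO. Their sums were highest in KO replicates 2 and 3 too, and KO replicate 1 was also above WT. None of these markers passed the test or was at 0 in all libraries, and their part in the ligand values was not tested. In whole tissue, fewer cells of a type and less RNA per cell cannot be told apart.

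The other 9 tested ligands had log2 differences between -0.56 and 0.38. Tgfb1, the main TGF-beta of immune cells, varied least, with 45.3 to 63.0 CPM in WT and 46.2 to 52.9 CPM in KO (log2 difference -0.063, 95% interval -0.42 to 0.29). Tgfb2 and Tgfb3, the other TGF-beta isoforms, were lowest in KO replicates 2 and 3, at 13.4 and 13.9 CPM for Tgfb2 and 18.3 and 15.5 CPM for Tgfb3. Their WT libraries ran from 20.7 to 37.5 CPM and from 20.3 to 45.2 CPM, and KO replicate 1 lay inside that range for both. Bmp4, a BMP of the crypt stroma, ranged from 51.6 to 66.4 CPM in WT and from 38.4 to 73.3 CPM in KO, and its exons overlap those of the gene model Gm15217 on the other strand. Gdf15, a stress-induced ligand, ranged from 15.5 to 23.4 CPM in WT and from 9.80 to 20.3 CPM in KO. Over all 14 tested ligands, the mean was lower in KO for 10 and higher for 4 (9 and 5 with total counts as the only scaling), and the median log2 difference was -0.15. This median became -0.60 when KO replicate 1 was left out and 0.0099 when KO replicate 3 was.

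**Figure D3:**
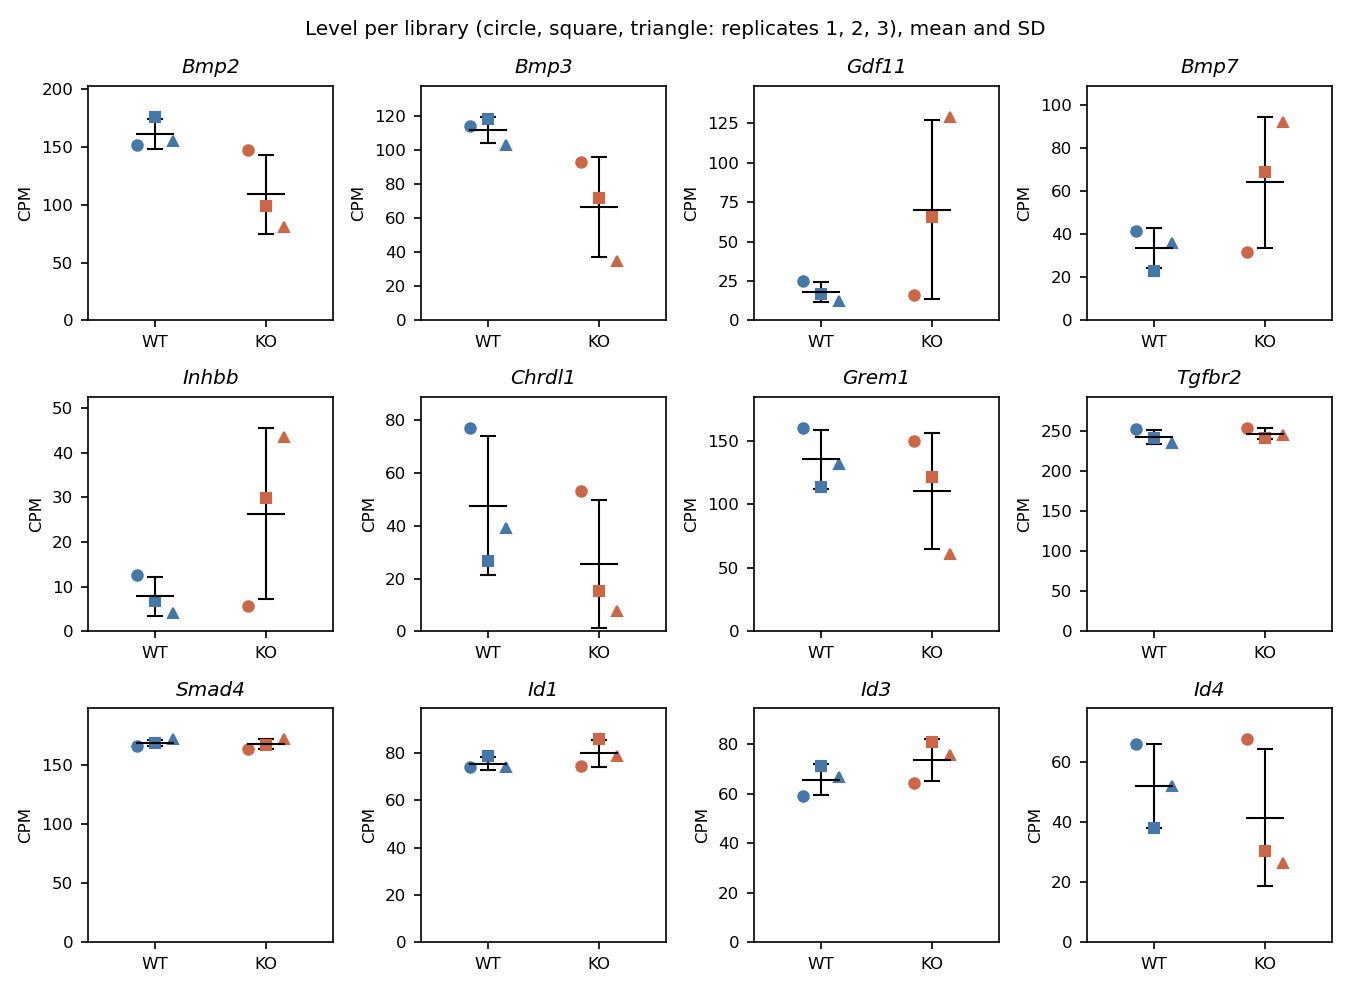
CPM per library for 12 members in WT and KO (circle, square and triangle, replicates 1 to 3), with the group mean (horizontal line) and SD (bar), each axis starting at 0. KO replicates 2 and 3 stand apart from KO replicate 1 for Gdf11, Bmp7 and Inhbb on the high side and for Bmp2 on the low side. Bmp3 falls from KO replicate 1 to KO replicate 3, while Tgfbr2 and Smad4 are level.

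Most receptor genes differed little, 8 of the 11 by less than 0.2 on the log2 scale, as did 61.8% of all tested genes. Acvr1b, a type I receptor for activins (chromosome 15, 101174067 to 101213684, plus strand), stood at 200, 216 and 205 CPM in WT and at 213, 199 and 181 CPM in KO, so that the groups overlapped. Its log2 difference was -0.064 ± 0.077 (SE; 95% interval -0.25 to 0.12). Acvr2a, a type II receptor for activins and some BMPs, had the smallest p among the receptors. It stood at 76.2, 75.3 and 74.1 CPM in WT and at 70.6, 64.0 and 74.9 CPM in KO, with KO replicate 3 inside the WT range (log2 difference -0.11 ± 0.080 SE; edgeR adjusted p = 0.842). Its exons overlap those of Orc4 on the other strand, and the strand of the counted reads is not given in the sources used here. Acvrl1, the type I receptor of endothelial cells also called ALK1, stood at 83.3, 70.6 and 98.0 CPM in WT and at 97.3, 64.4 and 47.4 CPM in KO (-0.27 ± 0.27 SE). Its difference became -0.59 when KO replicate 1 was left out, -0.13 when WT replicate 3 was and -0.048 when KO replicate 3 was. The 6 endothelial markers summed to 511, 332 and 457 CPM in WT and to 481, 285 and 363 CPM in KO, with 5 lower and 1 higher in mean and none at 0 in all libraries. Their part in the Acvrl1 values was not tested.

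Tgfbr2, the type II receptor for TGF-beta and a gene often mutated in human colon cancer, was given in full after its values were seen because of its evenness. It stood at 251, 241 and 234 CPM in WT and at 254, 240 and 245 CPM in KO, a log2 difference of 0.025 with a 95% interval from -0.11 to 0.16. Bmpr1a, a type I BMP receptor, had an interval from -0.16 to 0.11, and Tgfbr1 one from -0.27 to 0.27. Tgfbr3, the coreceptor betaglycan, varied most among the receptors, from 53.8 to 118 CPM in WT and from 37.9 to 115 CPM in KO. Of the 11 receptors, 9 had a lower mean in KO, or 7 with total counts as the only scaling. The widest differences were those of Tgfbr3 at -0.47, Bmpr1b at -0.33 and Acvrl1 at -0.27.

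Among the antagonists no pair of groups was separate. Chrdl1, a secreted BMP antagonist of the chordin family (chromosome X, 143285674 to 143394262, minus strand), had the largest difference, with 77.2, 26.6 and 39.0 CPM in WT and 53.1, 15.3 and 7.90 CPM in KO. The highest and the second highest values came from WT replicate 1 and KO replicate 1. The log2 difference of -0.90 ± 0.75 (SE; edgeR adjusted p = 0.850) was -2.04 without KO replicate 1, -0.36 without WT replicate 1 and -0.47 without KO replicate 3. Grem1, the antagonist secreted by muscle and fibroblasts below the crypts (chromosome 2, 113746164 to 113758646, minus strand), stood at 161, 114 and 132 CPM in WT and at 150, 122 and 60.6 CPM in KO. Only KO replicate 3 fell outside the WT range (log2 difference -0.29 ± 0.33 SE; adjusted p = 0.880 in edgeR), and without it the difference was 0.011. Fstl3, which binds activins and related ligands, stood at 10.6, 6.69 and 9.25 CPM in WT and at 7.92, 5.03 and 4.36 CPM in KO (-0.62 ± 0.31 SE; edgeR adjusted p = 0.829). It starts 1.72 Mb from S1pr4 on chromosome 10, and its exons overlap those of Prss57 on the other strand.

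Fst, or follistatin, which binds activins, was given in full after its values were seen. Fst was high in the same libraries as Inhbb. It stood at 11.6, 2.54 and 2.63 CPM in WT and at 2.68, 12.7 and 15.0 CPM in KO, so that the 3 Xist-high libraries were high and the 3 Y-linked libraries low. Its log2 difference of 0.85 ± 0.84 (SE) was 0.17 ± 0.22 with Xist status as a covariate and 1.97 without WT replicate 1. WT replicate 1 also stood apart in the sum of the 8 squamous and skeletal muscle markers. It was 497 CPM there and 41.2 to 73.3 CPM in the other libraries, though not every marker was highest in WT replicate 1. Of these markers Krt10, a keratin of squamous epithelium, was at 101 CPM in WT replicate 1 and at no more than 9.23 CPM elsewhere. The part of the markers in the Fst values was not tested. Fstl1, a secreted follistatin-like protein, ranged from 117 to 182 CPM in WT and from 92.2 to 161 CPM in KO. Nog and Chrd, the BMP antagonists noggin and chordin, were low, at no more than 6.64 and 16.7 CPM in any library. Bambi, a membrane pseudoreceptor, ranged from 23.3 to 28.9 CPM in WT and from 17.0 to 30.8 CPM in KO. Of the 8 antagonists, 5 were lower and 3 higher in mean in KO. Their median log2 difference of -0.29 became -0.54 when KO replicate 1 was left out and -0.070 when KO replicate 3 was.

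Markers of muscle and nerves of the colon wall had their lowest sums in KO replicates 2 and 3, the libraries in which Tgfb2, Tgfb3, Chrdl1 and Id4 were also lowest. The 8 smooth muscle markers all had a lower mean in KO and summed to 2006, 1671 and 1819 CPM in WT and to 1890, 1600 and 1114 CPM in KO. The 8 enteric neuron and glia markers summed to 206, 155 and 197 CPM in WT and to 216, 88.9 and 62.5 CPM in KO, again with all 8 lower in mean. The 8 fibroblast and telocyte markers summed to 1197, 721 and 1024 CPM in WT and to 1152, 830 and 646 CPM in KO, with 6 lower and 2 higher. Sums of immune markers were also highest in WT replicate 1 and KO replicate 1. They were 435, 272 and 326 CPM in WT and 512, 287 and 300 CPM in KO for 6 macrophage markers, all 6 higher in mean. For 6 T and B cell markers they were 219, 163 and 98.0 CPM and 260, 129 and 101 CPM, with 4 lower and 2 higher. None of these genes passed the test or was at 0 in all libraries, and their part in the members' values was not tested.

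SMAD genes differed little. All 8 differed by less than 0.2 on the log2 scale, with 4 higher, 4 lower and a median of -0.0012, or 7 higher and 1 lower with total counts as the only scaling. Smad4, the common SMAD (chromosome 18, 73639009 to 73703780, minus strand), stood at 167, 169 and 172 CPM in WT and at 164, 168 and 173 CPM in KO. Its log2 difference was -0.0073 ± 0.052 (SE), with a 95% interval from -0.13 to 0.12. Smad2, which carries TGF-beta and activin signals, had the smallest p of the group, with 94.6, 82.8 and 90.0 CPM in WT and 75.8, 82.3 and 85.5 CPM in KO (-0.13 ± 0.083 SE; edgeR adjusted p = 0.829). Of the KO libraries, only replicate 3 lay inside the WT range. Smad5, of the BMP branch, stood at 174, 151 and 167 CPM in WT and at 169, 157 and 202 CPM in KO (0.10 ± 0.11 SE), with only KO replicate 3 above the WT range. Among the rest, Smad1 and Smad3 had 95% intervals from -0.19 to 0.14 and from -0.15 to 0.14. The inhibitory SMADs Smad6 and Smad7 had intervals from -0.23 to 0.47 and from -0.36 to 0.37, with their lowest values in WT replicate 1, at 46.3 and 86.2 CPM. Smad9, the least abundant, had one from -0.76 to 1.09.

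ID genes, which are among the targets of BMP signals, also overlapped between genotypes. Id1 (chromosome 2, 152736251 to 152737410, plus strand) stood at 73.9, 78.5 and 73.9 CPM in WT and at 74.6, 86.0 and 78.6 CPM in KO. The log2 difference was 0.079 ± 0.080 (SE; 95% interval -0.11 to 0.27; edgeR adjusted p = 0.870). Id3 (chromosome 4, 136143497 to 136145755, plus strand) stood at 59.1, 71.2 and 67.0 CPM in WT and at 64.2, 81.1 and 75.8 CPM in KO (0.16 ± 0.12 SE; 95% interval -0.12 to 0.45; edgeR adjusted p = 0.836). KO replicates 2 and 3 were the highest for both genes and KO replicate 1 lay inside the WT range. Id2 ranged from 38.4 to 49.2 CPM in WT and from 39.7 to 49.2 CPM in KO. Id4, given in full after its values were seen, differed from the other ID genes in its order of libraries, with 66.0, 38.0 and 51.9 CPM in WT and 67.7, 30.4 and 26.3 CPM in KO (-0.33 ± 0.40 SE). Its difference became -0.88 when KO replicate 1 was left out and -0.077 when KO replicate 3 was. The counts of Acvr1b, Smad4, Id1 and Id3 averaged 0.357, 0.353, 0.519 and 0.302 per exon base. No gene of any library exceeded 0.973, so levels, differences and the SD between libraries of these 4 genes may be compressed. They are the members above 0.3, a cut set by choice. Bmp2 with 0.297, Grem1 with 0.233 and Tgfbr2 with 0.232 lay below it and are not shown to be free of compression.

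To show the sequence next to members that were high or low in the same libraries, 250 bases upstream of the RefSeq start are given for Gdf11 and Inhbb, which were high in the same libraries, and for Grem1 and Id4, which were lowest in KO replicate 3. They were read 5′ to 3′ on the strand of the gene (RefSeq, GRCm38.p6) from chr10:128891719-128891968, chr1:119422249-119422498 and chr2:113758649-113758898, all minus strand, and chr13:48260866-48261115, plus strand. No annotated GENCODE exon falls in these windows. Capitals mark matches, on either strand, to any of 4 short motifs. GGCGCC is a response element of the BMP branch that is rich in G and C. CTTTGA is the core that TCF and LEF factors bind. GTCTAGAC is a palindrome made of SMAD boxes. TATAAA is the core of the box found near many start sites.
Gdf11: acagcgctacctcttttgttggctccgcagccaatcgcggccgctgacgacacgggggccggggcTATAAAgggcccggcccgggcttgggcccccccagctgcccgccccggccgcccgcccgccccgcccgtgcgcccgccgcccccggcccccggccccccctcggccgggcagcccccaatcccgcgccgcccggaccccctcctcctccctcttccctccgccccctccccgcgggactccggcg
Inhbb: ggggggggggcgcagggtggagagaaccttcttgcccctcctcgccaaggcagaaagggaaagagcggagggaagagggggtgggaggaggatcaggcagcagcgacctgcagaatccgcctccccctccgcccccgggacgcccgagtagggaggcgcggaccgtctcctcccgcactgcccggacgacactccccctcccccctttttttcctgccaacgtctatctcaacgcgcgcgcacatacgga
Grem1: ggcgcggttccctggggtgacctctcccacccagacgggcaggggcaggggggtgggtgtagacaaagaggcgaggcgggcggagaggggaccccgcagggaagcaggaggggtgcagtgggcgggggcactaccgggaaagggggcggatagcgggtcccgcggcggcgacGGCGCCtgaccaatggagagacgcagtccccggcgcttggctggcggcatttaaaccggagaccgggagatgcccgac
Id4: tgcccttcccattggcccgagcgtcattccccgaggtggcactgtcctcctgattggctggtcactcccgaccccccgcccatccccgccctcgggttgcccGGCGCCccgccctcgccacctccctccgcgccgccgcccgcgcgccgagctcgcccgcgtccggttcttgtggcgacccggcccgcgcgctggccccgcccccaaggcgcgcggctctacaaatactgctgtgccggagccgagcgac
Grem1 and Id4 each hold 1 GGCGCC, which begins 78 and 148 bases before the start, Gdf11 holds 1 TATAAA 185 bases before it, and Inhbb holds none of these letters in this window. No match overlapped another. Promoters of 32 of the 46 members were matched, 38 windows in all, and GGCGCC was in 9 of them (23.7%) against 9.59% of all 32851 windows of this length. The members' windows also had a median GC content of 67.4% against 52.4%, and the part of base composition in the motif share was not tested. TATAAA was in 5 of the 38 against 12.4% of all, CTTTGA in 2 against 13.8% and GTCTAGAC in 0 against 0.167%. A match is a description of the letters and no evidence of binding.

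Compared library by library, KO replicates 2 and 3 lay below WT for more members than KO replicate 1. KO replicate 2 lay below all WT libraries for 20 of 45 members, where 30.5% of all genes did so, and KO replicate 3 also for 20, where 33.8% did. They lay above all WT libraries for 8 and 11 members, against 30.6% and 32.2% of all genes. KO replicate 1 lay below for 7 and above for 9, against 22.5% and 21.4%. In percent of members, KO replicates 2 and 3 were each below for 44.4%, while KO replicate 1 was below for 15.6%.

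**Figure D4:**
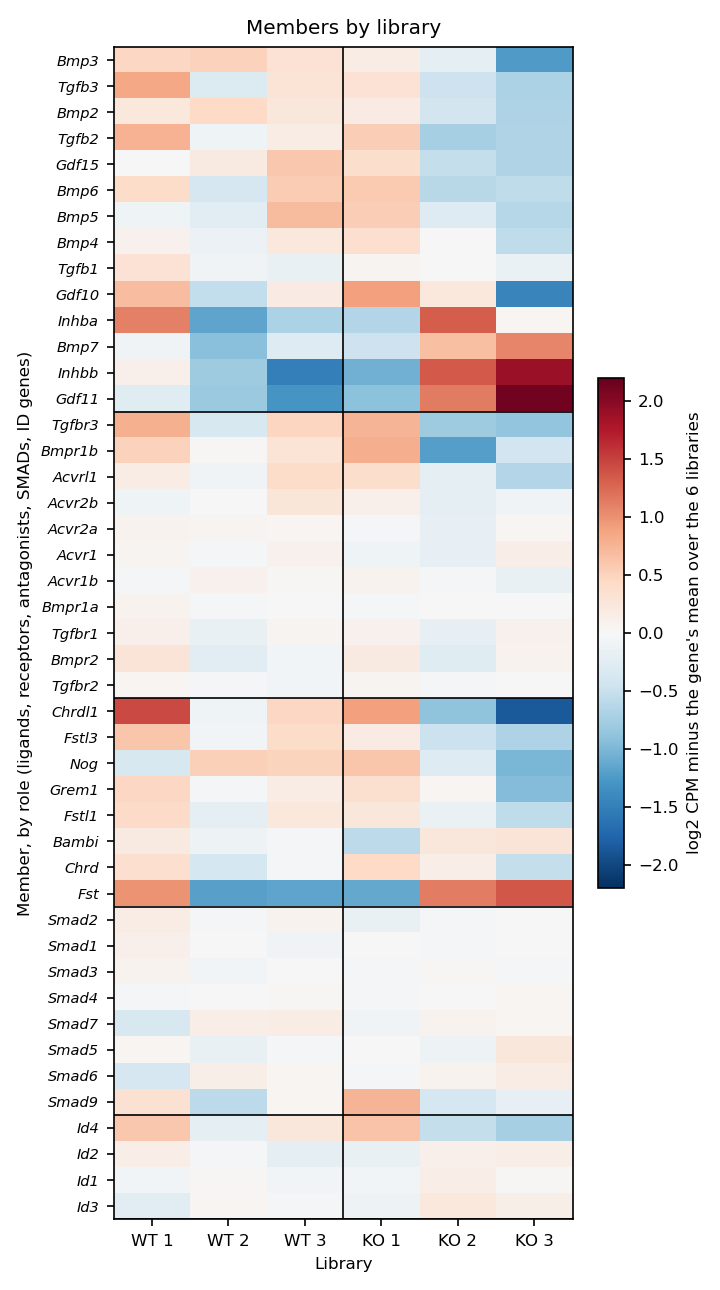
Log2 CPM of the 45 tested members in each library, minus the gene's mean over the 6 libraries (blue, lower; red, higher), by role and ordered by the difference of KO from WT. KO replicate 3 is blue for most ligands and antagonists, KO replicates 2 and 3 are red for Gdf11, Inhbb, Bmp7 and Fst, and the rows of SMAD genes other than Smad9 are pale.

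The genotype difference was also taken within each Xist set. In the Xist-high set, KO replicates 2 and 3 were compared with WT replicate 1, and in the Y-linked set KO replicate 1 with WT replicates 2 and 3, so each value rests on 1 library of one genotype. KO was lower in the Xist-high set and higher in the Y-linked set for 24 members, against 30.9% of all genes, and the reverse held for 6, against 33.9%. The sign was thus opposite in the sets for 30 members, or 66.7%, close to the 64.8% of all genes. The median log2 difference was -0.25 in the Xist-high set and 0.096 in the Y-linked set, where all tested genes had 0.014 and -0.0091. Chrdl1 stood at -2.73 and 0.69, Tgfb2 at -1.46 and 0.49, Tgfb3 at -1.42 and 0.29, and Id4 at -1.22 and 0.59. Bmp2 and Bmp3 were lower in both sets, with -0.76 and -0.17 for Bmp2 and -1.09 and -0.26 for Bmp3. Gdf11, Inhbb and Bmp7 were higher in both, but only by 0.13, 0.037 and 0.098 in the Y-linked set.

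The difference between the sets was also fitted as an interaction in edgeR. Its log2 term, Y-linked minus Xist-high, was 3.42 for Chrdl1, 0.59 for Bmp2 and -1.85 for Gdf11. WT replicate 1 and KO replicate 1 are each the only library of their genotype in their set, so neither adds to the measured spread. The term cannot be told apart from a deviation of either library alone, and its p-values are not given. Irrespective of genotype, the Xist-high libraries were all above the Y-linked ones for 7 members, Bmp7, Gdf11, Inhba, Inhbb, Fst, Bambi and Id2, against 8.29% of all genes. They were all below for 4 members, Gdf15, Acvr1b, Acvr2b and Nog, against 7.72%.

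**Figure D5:**
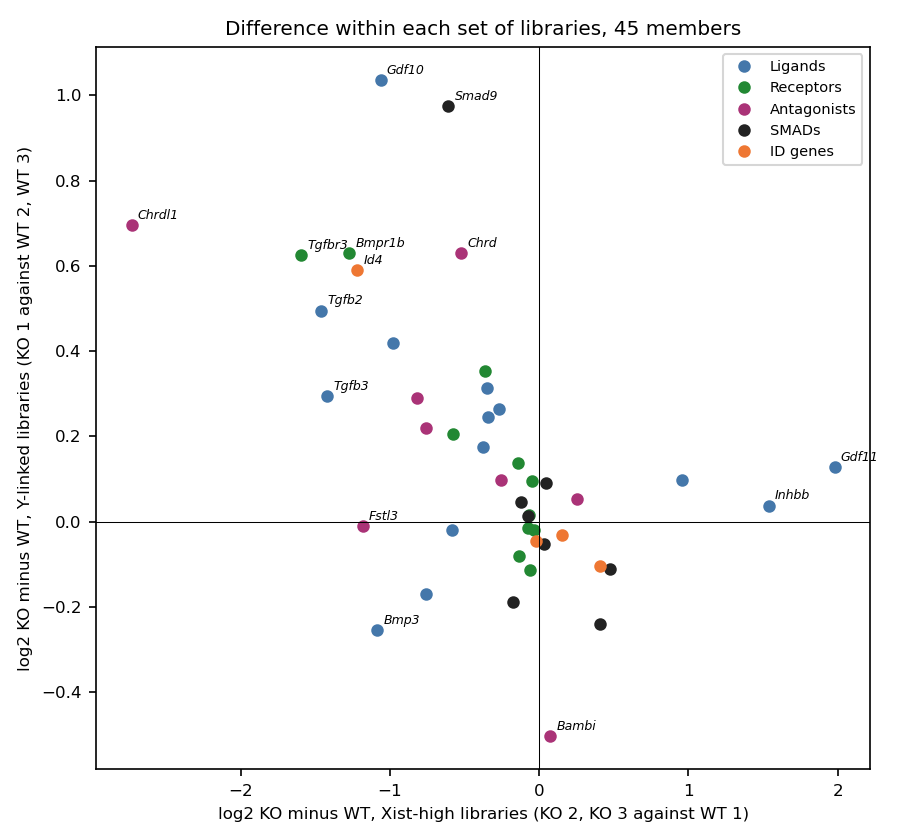
Log2 difference of KO from WT within the Xist-high libraries (horizontal axis) and within the Y-linked libraries (vertical axis) for the 45 tested members, coloured by role. The upper left field holds 24 members, and Bmp3 stands in the lower left and Gdf11 in the upper right.

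Of the other genes of the pathway, listed in 7 groups, edgeR also called 0. At an unadjusted p under 0.05 edgeR had 1 receptor or coreceptor and 2 intracellular regulators of SMADs. It had 0 genes in the other groups, against 5.06% of all genes. Among the other ligands, 4 of the 16 counted genes passed the filter, 2 higher and 2 lower, with the smallest p for Bmp8a (log2 difference -0.50 ± 0.26 SE). Of the 6 tested receptors and coreceptors, 5 were lower and 1 higher in mean. Rgmb, a BMP coreceptor, stood at 105, 113 and 115 CPM in WT and at 104, 91.1 and 90.1 CPM in KO (-0.22 ± 0.081 SE; edgeR adjusted p = 0.829). The groups of Rgmb were separate by a small gap at KO replicate 1, where 5.04% of all genes were separate and lower in KO. Of the 16 tested extracellular modulators, 11 were lower and 5 higher, with Crim1, a membrane protein that binds BMPs, at -0.53 ± 0.25 and Htra1, a secreted protease, at 0.39 ± 0.20 (SE). Of the 17 genes that store and activate latent TGF-beta, 9 were lower and 8 higher. Itgb8, an integrin subunit that activates latent TGF-beta, stood at 18.5, 6.95 and 5.38 CPM in WT and at 11.6, 28.2 and 51.2 CPM in KO (1.56 ± 0.68 SE; edgeR adjusted p = 0.829), highest in the same libraries as Gdf11.

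Intracellular regulators of SMADs held the smallest p of these lists. Tgif1, a corepressor that limits SMAD2 and SMAD3 activity, stood at 71.4, 78.8 and 60.5 CPM in WT and at 93.6, 112 and 106 CPM in KO. All KO libraries were above all WT libraries, KO replicate 1 included, as was the case for 4.55% of all genes. The log2 difference was 0.57 ± 0.12 (SE; adjusted p = 0.829 in edgeR and 0.102 in DESeq2). Smurf1, a ubiquitin ligase for SMAD1 and SMAD5, stood at 161, 137 and 138 CPM in WT and at 118, 124 and 133 CPM in KO (-0.21 ± 0.089 SE; edgeR adjusted p = 0.829), also without overlap. Separate groups with KO lower were found for 5.04% of all genes. Of the 19 tested regulators 10 were lower and 9 higher, with a median of -0.0030.

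Target genes of either branch had differences of both signs. Among 22 TGF-beta and activin targets, of which Smad7 is also a member, 16 were lower and 6 higher in mean in KO, and the median was -0.13. Pmepa1, a feedback inhibitor, stood at 155, 108 and 106 CPM in WT and at 119, 183 and 177 CPM in KO. Its log2 difference was 0.37 ± 0.22 (SE), with KO replicates 2 and 3 the highest and KO replicate 1 inside the WT range. Among 15 tested BMP targets, a list that holds 7 members, 10 were higher and 5 lower with a median of 0.033. Atoh8 stood at 24.1, 26.7 and 29.8 CPM in WT and at 23.5, 22.5 and 21.9 CPM in KO (-0.25 ± 0.13 SE). Its groups were separate too, as 5.04% of all genes were with KO lower. Msx1 stood at 6.86, 8.83 and 3.75 CPM in WT and at 1.92, 30.2 and 24.2 CPM in KO (1.53 ± 0.90 SE).

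The CD8 tables listed 357 genes, of which 1 was a member, and the other members were not analysed there. How these genes were chosen is not given in the sources used here. Tgfb2 (chromosome 1, 186622792 to 186705989, minus strand) was counted with 32, 112 and 48 reads in CD8 WT libraries and with 19, 13 and 11 in CD8 KO libraries. Counts over the listed genes summed to 57721, 183504 and 44811 in WT and to 26702, 17721 and 17407 in KO. The sums were thus lower in every KO library too, and the counts of Tgfb2 alone do not show a difference between genotypes. These sums are not depths, so no ratio is given.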

How the data were processed

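RNA sequencing counts per Ensembl gene were used as deposited, whole numbers with no normalisation, per the file headers. The builds mm10 and GRCm38 and the tools HTSeq, RSEM, STAR, TopHat2 and DESeq2 are named in the submitters' processing notes. Roles, versions, filters, removal of duplicate reads and strand were not given in the sources used here, so reads of overlapping genes on opposite strands cannot be told apart. RNA was isolated with a column kit, per the labels' protocols.

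Groups came from the sample titles and genotype labels. The deposited colon tables held 30263 genes, of which 30212 (99.8%) matched GENCODE vM21 on GRCm38. After filterByExpr (minimum count 10) and TMM scaling, genes were tested in R 4.3.3 by the quasi-likelihood F test of edgeR 4.0.16 (robust, group as the only term), with Benjamini-Hochberg adjustment over 17195 genes and a threshold of 0.05. Differences are log2 KO minus WT with the standard error (SE), taken from the fold and its F statistic, and 95% intervals. Per-length levels used the union of annotated exons. Library sizes were 7304082 to 8652561 counts. The deposited counts hold no molecular identifiers, and whether the reads carried any cannot be seen in them. The errors rest largely on the spread between the libraries of each genotype, so they cover these samples only. DESeq2 1.42.0, limma 3.58.1 voom, other scalings and filters, the replicate block, Xist status as a covariate and leaving out each library were alternatives. Promoter sequences came from the RefSeq table on GRCm38.p6, which held no entry under the symbols Acvrl1, Bambi, Bmp2, Bmp3, Bmp7, Chrdl1, Fst, Id1, Nog, Smad2, Smad4, Smad7, Tgfb3 and Tgfbr3.

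Members, gene lists and the use of Xist status were chosen with earlier results of these data known. Values in every library are given for the 2 members of each role with the smallest p, the member with the highest level per kilobase and members with separate groups, and up to 3 genes with the smallest p could be taken from each other list. Those named from these lists were picked after their values were seen, and 1 gene is not reported here. Of the listed pathway and marker genes, 4 were not in the tables used here.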

Additional observations from a re-analysis of the deposited data

How the results depend on the processing

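With 3 libraries per genotype and a single library of one genotype in each Xist set, genotype, library and sex marker could be separated only in part, and a difference that missed the test is not shown to be absent. Counts per exon base stop just under 1, which bears on the well-counted members. The number of members called was 0 under every alternative, and the number of all genes called was 0 except for 18 under DESeq2. The cause was not tested. Members with separate groups numbered 2 with DESeq2 size factors (9.57% of all genes) and 3 with total counts only (9.11%), a comparison chosen after seeing the data. Leaving out single libraries called 0 members and 0 genes throughout, and the median of all members then ran from -0.12 to -0.013. Without KO replicate 1, 15 of 45 members had an unadjusted p under 0.05 in edgeR, where 20.9% of all genes did.

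Some differences changed sign, and the cause was not tested. Tgfbr1 became 0.0036 with DESeq2 size factors, 0.028 with total counts only, 0.0039 with no filter, 0.0042 with a mean of at least 50 counts and 0.0035 in DESeq2. With total counts only, Gdf10 became 0.018, Bmpr1a 0.0053, Smad1 0.0054, Smad3 0.022 and Smad4 0.022. With Xist status as a covariate, Inhba went from 0.38 to -0.018, while Bmpr2 became -0.0072, Bambi -0.21 and Id2 -0.033. In limma-voom, Tgfb1 became 0.059, Bmpr1a 0.0028, Bmpr2 -0.051, Smad1 0.0083, Smad3 0.021 and Smad7 -0.050, and Smad9 went from 0.17 to -0.13.

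Leaving out single libraries gave ranges that crossed 0 for Acvr1 (-0.16 to 0.00092), Acvr1b (-0.12 to 0.0024), Acvr2b (-0.21 to 0.015), Bambi (-0.12 to 0.24), Bmp4 (-0.33 to 0.13), Bmp5 (-0.63 to 0.14), Bmpr1a (-0.048 to 0.020), Bmpr1b (-1.05 to 0.024) and Bmpr2 (-0.10 to 0.18). They also did for Chrd (-0.18 to 0.28), Gdf10 (-0.58 to 0.42), Grem1 (-0.58 to 0.011), Id2 (-0.013 to 0.16), Inhba (-0.36 to 1.40), Smad1 (-0.053 to 0.036), Smad3 (-0.040 to 0.042), Smad4 (-0.020 to 0.018), Smad5 (-0.0019 to 0.18), Smad6 (-0.0048 to 0.22), Smad7 (-0.14 to 0.10), Smad9 (-0.26 to 0.39), Tgfb1 (-0.14 to 0.11) and Tgfbr1 (-0.079 to 0.083).

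With the replicate number as a block, 0 members and 0 genes were called, 4 of 45 members had an unadjusted p under 0.05 where 6.3% of all genes did, and Bambi became -0.027. The numbers share no stated origin, and deviations of same-numbered libraries from their group means correlated at -0.039, 0.21 and -0.23 for replicates 1 to 3 across genes, so the samples were taken to share only a number.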
